A study of Mus musculus with 6 samples.

Results

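The 9 genes described here belong to a pair of linked protease systems. Plau, Plat, Plaur, Serpinb2 and Serpine2 act in plasminogen activation, and F3, F10, Tfpi and Thbd act in coagulation. They were found by symbol among the 54532 genes of the deposited table, and all 9 were listed. They were chosen by their function and by their FPKM values in the comparison of cisplatin with phosphate-buffered saline (PBS), which were already known, so that their levels and differences are given as a description and were not tested.

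The libraries came from mouse bone marrow-derived macrophages (BMDMs) after co-culture with ID8 cells, a line of ovarian tumour cells from the mouse. Cisplatin at 40 μM, a DNA-crosslinking chemotherapy drug, was the pretreatment of the ID8 cells for 3 libraries, and PBS, the control, for the other 3. The study's methods give the source of the marrow as C57BL/6 mice and call the cultured cells monocytes, name no growth factor, and do not state how long the co-culture lasted or how the cells were separated from ID8 cells. ID8 is a single line, and nothing in the labels says that libraries of a group came from separate mice, so that SDs and p-values measure the spread between libraries, which may be technical.

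In plasminogen activation, the proteases urokinase (Plau) and tissue-type plasminogen activator (Plat) cut plasminogen to plasmin, which dissolves fibrin and degrades matrix. Urokinase does so on the cell surface, bound to its receptor (Plaur), and serpins such as the products of Serpinb2 and Serpine2 trap the activators. Coagulation starts when tissue factor (F3) binds factor VIIa and activates factor X (F10). The Tfpi product blocks that step, and thrombomodulin (Thbd) turns thrombin towards the activation of the anticoagulant protein C. Macrophages are known for making urokinase and its receptor and for showing tissue factor when they are activated.

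With cisplatin-pretreated ID8 cells, the tissue factor gene F3 was 8.24-fold lower in BMDM libraries and Plat was 2.73-fold lower, as ratios of mean FPKM (fragments per kilobase of gene length, scaled to library size). Serpinb2 was 7.81-fold higher, Tfpi and Thbd were each 3.42-fold higher, Serpine2 2.36-fold, Plaur 2.29-fold and F10 1.81-fold. Plau was 1.09-fold higher, with groups that overlapped. The groups lay apart in 6 members with cisplatin higher and in 2 with cisplatin lower; among all 13441 tested genes, 35.2% lay apart with cisplatin higher and 37.2% with cisplatin lower, 72.4% in all. On log2(FPKM + 1), 3 members had a log2 fold change of 1 or more and 2 of -1 or below, against 4.83% and 11.3% of all tested genes. The first of these counts was 5 in place of 3 with a pseudocount of 0.1, with TPM rescaling and with limma voom on recovered reads, since Tfpi and Serpine2 then passed 1. The median log2 fold change was 0.85 over the members and -0.0011 over all tested genes.

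**Figure D1:**
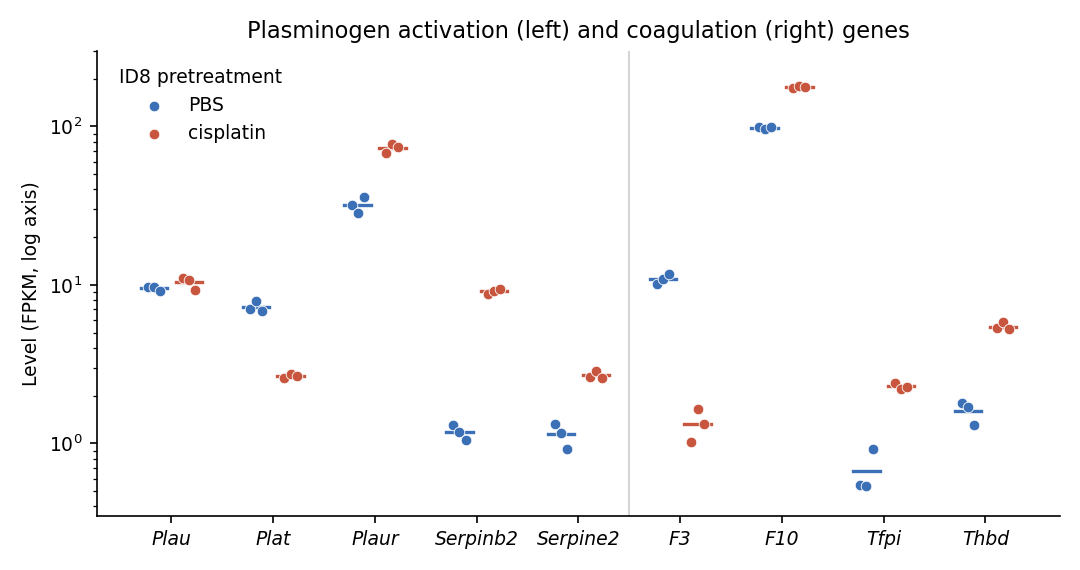
Level of each member in every library, in FPKM on a log axis; each point is 1 library, the short line is the mean of 3 libraries, blue marks PBS and red marks cisplatin pretreatment of the ID8 cells. F3 goes from between 10.2 and 11.8 to between 1.02 and 1.64 FPKM, Plat is also lower with cisplatin, Plau overlaps, and the other 6 genes are higher with cisplatin.

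The promoters of F3, Serpinb2 and Plaur are shown because F3 and Serpinb2 differed the most in each direction, Plaur had the highest level of the plasminogen members, and each holds an AP-1 motif. RefSeq entries on GRCm38.p6 were found for 6 members, namely Serpine2, Serpinb2, Plaur, F3, F10 and Tfpi. Each run below holds the 250 bases before the transcription start, 5′ to 3′ on the strand of the gene, with matches to the AP-1 motif TGANTCA on either strand in capitals.
F3 (chr3:121723287-121723536, plus strand): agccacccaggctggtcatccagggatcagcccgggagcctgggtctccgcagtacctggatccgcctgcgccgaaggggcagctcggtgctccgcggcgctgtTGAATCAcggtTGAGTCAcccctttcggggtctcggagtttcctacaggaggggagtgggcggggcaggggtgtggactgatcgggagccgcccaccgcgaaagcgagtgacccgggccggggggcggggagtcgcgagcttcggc
Serpinb2 (chr1:107511173-107511422, plus strand): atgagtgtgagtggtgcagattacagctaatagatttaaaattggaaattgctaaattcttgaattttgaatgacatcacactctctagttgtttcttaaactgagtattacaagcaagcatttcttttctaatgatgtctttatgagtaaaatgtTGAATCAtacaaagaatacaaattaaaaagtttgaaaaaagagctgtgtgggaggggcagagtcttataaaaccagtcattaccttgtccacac
Plaur (chr7:24462233-24462482, plus strand): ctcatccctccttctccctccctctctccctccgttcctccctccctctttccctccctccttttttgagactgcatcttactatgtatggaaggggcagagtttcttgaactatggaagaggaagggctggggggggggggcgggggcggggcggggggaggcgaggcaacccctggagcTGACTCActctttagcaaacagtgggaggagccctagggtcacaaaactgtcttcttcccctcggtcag
Of 8 motifs searched on both strands, the AP-1 motif occurred in these 3 of the 6 promoters and in 6.75% of the 32851 promoters of the same length in the table. In F3 it occurred at 146 to 140 and again at 135 to 129 bases before the start, in Serpinb2 at 94 to 88 and in Plaur at 69 to 63. Thus the motif was present in genes that differed in opposite directions. The GC box GGGCGG was found in 4 of the 6 promoters (Serpine2, Plaur, F3 and Tfpi) and in 32.7% of all. The RefSeq start used for Serpine2 lies 2515 bases inside the gene as listed in the deposited table. The TATA box TATAAA was found in Serpinb2, at 29 to 24 bases before the start, and its letters in Tfpi, on the opposite strand at 127 to 122 bases, against 12.4% of all promoters. The C/EBP motif TTGCNNAA was found in Serpinb2 and Plaur (9.56% of all) and the NF-kB motif in F10 (15.9% of all). The CRE TGACGTCA, the TEAD motif GGAATG and the ISRE core were found in 0 of the 6, against 1.55%, 12.6% and 2.98% of all promoters. The F3 window was 70.0% and the Serpinb2 window 32.4% G and C, with a median of 52.4% over all promoters. A match describes the letters in a window and says nothing of binding.

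Among the activators, Plau and Plat parted. Plau (ENSMUSG00000021822, GRCm38 chromosome 14, 20836660 to 20843385) was at 9.76, 9.66 and 9.18 FPKM in PBS replicates 1 to 3 and at 11.1, 10.7 and 9.31 FPKM in cisplatin replicates 1 to 3. Cisplatin replicate 3 lay within the range of the PBS libraries, and the means were 9.53 ± 0.31 and 10.4 ± 0.93 FPKM (SD over 3 libraries each, log2 fold change 0.11, SE 0.069). Plat (ENSMUSG00000031538, chromosome 8, 22757727 to 22782844) was at 7.03, 7.92 and 6.89 FPKM with PBS and at 2.60, 2.74 and 2.65 FPKM with cisplatin. All 3 cisplatin libraries were below all 3 PBS libraries, with means of 2.66 ± 0.072 and 7.28 ± 0.56 FPKM (SD over 3 libraries each, log2 fold change -1.17, SE 0.066).

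The urokinase receptor gene Plaur (ENSMUSG00000046223, chromosome 7, 24462484 to 24475968) was the most abundant plasminogen member in both groups. It was at 31.7, 28.4 and 35.7 FPKM with PBS and at 68.1, 77.4 and 74.2 FPKM with cisplatin. The groups did not overlap, and the means were 31.9 ± 3.67 and 73.3 ± 4.72 FPKM (SD over 3 libraries each, log2 fold change 1.18, SE 0.087). The receptor thus differed while Plau, the gene of its ligand, overlapped between groups.

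Both serpin genes were higher with cisplatin, and from a low base. Serpinb2 (ENSMUSG00000062345, chromosome 1, 107511423 to 107535478) encodes plasminogen activator inhibitor type 2, an inhibitor of urokinase that stays largely inside the cell. It was at 1.30, 1.18 and 1.04 FPKM with PBS, on 38 to 54 reads, and at 8.79, 9.20 and 9.49 FPKM with cisplatin, on 351 to 368 reads. Every cisplatin library was above every PBS library (9.16 ± 0.35 against 1.17 ± 0.13 FPKM, SD over 3 libraries each, log2 fold change 2.23, SE 0.069). Its 3′ part overlaps Serpinb10 on the same strand, which was listed at 0.81 FPKM with cisplatin and 0.16 FPKM with PBS on average, and reads in the shared stretch could be split between them.

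Serpine2 (ENSMUSG00000026249, chromosome 1, 79794197 to 79861180) encodes protease nexin-1, an inhibitor of urokinase, tissue-type activator and thrombin. Its levels were 1.32, 1.17 and 0.926 FPKM with PBS and 2.61, 2.85 and 2.59 FPKM with cisplatin. The groups lay apart at low levels (1.14 ± 0.20 against 2.69 ± 0.14 FPKM, SD over 3 libraries each, log2 fold change 0.79, SE 0.096). These serpins are not the only inhibitors of the activators, and no total over inhibitors is given.

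Of the coagulation members, F3 differed the most. F3 (ENSMUSG00000028128, chromosome 3, 121723537 to 121735048) was at 10.2, 10.9 and 11.8 FPKM with PBS, on 428 to 461 reads, and at 1.02, 1.64 and 1.32 FPKM with cisplatin, on 44 to 68 reads. The groups were far apart (10.9 ± 0.81 against 1.33 ± 0.31 FPKM, SD over 3 libraries each, log2 fold change -2.36, SE 0.11). Its substrate gene F10 (ENSMUSG00000031444, chromosome 8, 13037308 to 13056676) encodes factor X, the protease precursor from which factor Xa is made. It was at 99.7, 95.9 and 98.7 FPKM with PBS and at 174, 180.3 and 177 FPKM with cisplatin. This was the tightest member in relative terms, and the groups did not overlap (98.1 ± 1.96 against 177 ± 3.04 FPKM, SD over 3 libraries each, log2 fold change 0.85, SE 0.032).

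The genes of both anticoagulant members were higher with cisplatin. Tfpi (ENSMUSG00000027082, chromosome 2, 84432855 to 84476775) was at 0.548, 0.541 and 0.921 FPKM with PBS, on 46 to 78 reads, and at 2.40, 2.20 and 2.27 FPKM with cisplatin, on 197 to 223 reads (means 0.670 ± 0.22 and 2.29 ± 0.10 FPKM, SD over 3 libraries each, log2 fold change 0.99, SE 0.11). No PBS library reached 1 FPKM for Tfpi, so the gene passed the filter on low values only through the cisplatin libraries. Thbd (ENSMUSG00000074743, chromosome 2, 148404466 to 148408188), a gene with 1 exon, was at 1.79, 1.69 and 1.30 FPKM with PBS and at 5.32, 5.79 and 5.24 FPKM with cisplatin. The groups lay apart (1.59 ± 0.26 against 5.45 ± 0.30 FPKM, SD over 3 libraries each, log2 fold change 1.32, SE 0.092).

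Ordered by level, which FPKM allows since it is per length, F10 and Plaur stood first and second in both groups. With PBS they were followed by F3, Plau, Plat, Thbd, Serpinb2, Serpine2 and Tfpi, where the libraries of Serpine2 overlapped those of Serpinb2 and of Thbd. With cisplatin the order after Plaur was Plau, Serpinb2, Thbd, Serpine2, Plat, Tfpi and F3, and the libraries of Plau and Serpinb2 and those of Serpine2 and Plat overlapped. F3 thus went from the third to the last place. Among all tested genes F10 was at the 96.9th percentile of level with PBS and the 98.5th with cisplatin, and F3 at the 61.3rd and the 11.4th. The SD of F3 in the cisplatin libraries was 23.2% of its mean, where counting reads alone gives 13.4%, and that of F10 was 1.72%, where counting gives 1.11%.

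Ratios of levels within a library do not depend on its scaling. F3 transcripts outnumbered Tfpi transcripts per length by 18.5, 20.1 and 12.8 in the PBS libraries, whereas the ratio was 0.427, 0.746 and 0.580 in the cisplatin libraries. The ratio of F3 to Thbd went from 7.05 ± 1.78 to 0.242 ± 0.046 (SD, n = 3 each). F10 over F7 was 9.82 ± 0.60 with PBS and 18.5 ± 1.603 with cisplatin. Plaur over Plau went from 3.36 ± 0.48 to 7.12 ± 0.91, and Plau over Plat from 1.31 ± 0.086 to 3.89 ± 0.37 (SD, n = 3 each). In all of these ratios the 3 cisplatin libraries lay apart from the 3 PBS libraries. They combine the values that the members were picked with, and were not tested.

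**Figure D2:**
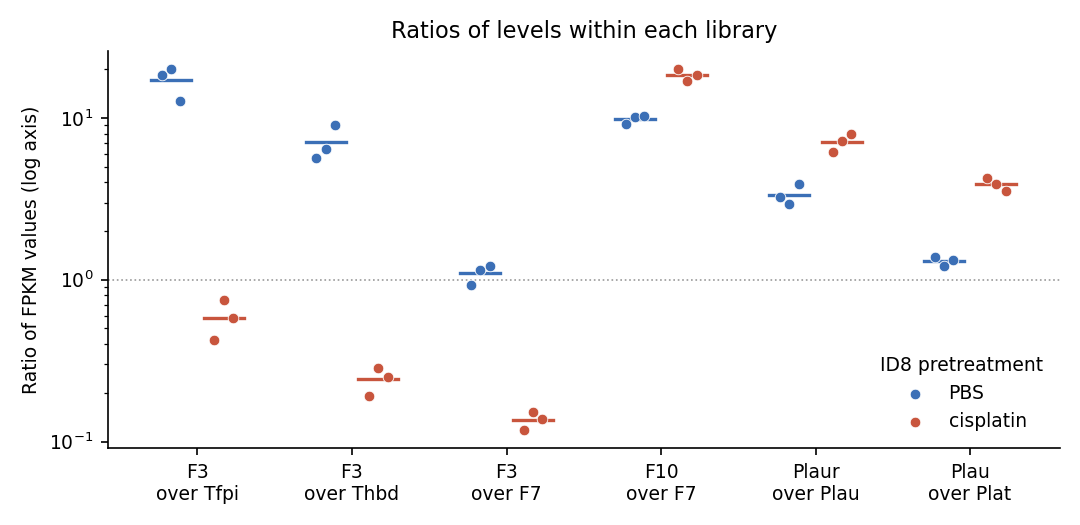
Ratio of the FPKM values of pairs of genes within each library, on a log axis; each point is 1 library, the short line is the mean of 3, and the dotted line marks equal levels. F3 over Tfpi lies above 1 in the PBS libraries (12.8 to 20.1) and below 1 in the cisplatin libraries (0.427 to 0.746).

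Other genes of the pathway were tested with all genes with limma and called at an adjusted p under 0.05 where the log2 fold change was also 1 or more in size, and 4.67% of tested genes were called higher and 11.3% lower. At the adjusted p alone these shares were 32.9% and 35.1%. With limma voom on recovered reads, higher genes made up 39.7% of all calls and with quantile normalisation 39.3%, in place of 29.3%. Of 28 genes of the plasminogen system, 17 were tested, 1 was called higher and 5 lower, and the log2 fold changes had a median of -0.69. The gene of plasminogen itself, Plg, was between 0 and 0.104 FPKM in all libraries and was not tested. Itgam, which encodes the CD11b chain of an integrin that pairs with the urokinase receptor, rose from 34.96 ± 0.87 to 95.2 ± 3.30 FPKM (SD over 3 libraries each, log2 fold change 1.42, limma, adjusted p = 2.54e-07). Itgam is also 1 of the 14 macrophage markers described below, all of which had positive log2 fold changes, and the part of macrophage content in its value was not tested. Its partner chain gene Itgb2, named after its value was seen, had a log2 fold change of 0.75 (limma, adjusted p = 1.79e-06), short of the fold threshold. The chains of the vitronectin receptor, another integrin partner of the urokinase receptor, fell. Itgav went from 30.4 ± 0.59 to 8.74 ± 0.28 FPKM (log2 fold change -1.69, limma, adjusted p = 1.62e-07), and Itgb3 from 45.5 ± 0.92 to 13.2 ± 0.64 FPKM (log2 fold change -1.71, limma, adjusted p = 2.19e-07, SD, n = 3 each).

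Anxa2 encodes annexin A2, a plasminogen-binding protein of the cell surface, and went from 208 ± 3.83 to 104 ± 1.48 FPKM (SD, n = 3 each), with a log2 fold change of -0.998 that fell just short of the threshold (limma, adjusted p = 4.06e-07). Its partner gene S100a10 had a log2 fold change of -0.20 (limma, adjusted p = 0.037) and the plasminogen receptor gene Plgrkt of -0.69 (limma, adjusted p = 3.54e-05), both below the fold threshold. Eno1, whose enolase product also binds plasminogen and which was named after its value was seen, fell with a log2 fold change of -1.26 (limma, adjusted p = 1.27e-07). Lrp1, the receptor that clears activator and inhibitor complexes, fell from 91.2 ± 4.52 to 45.1 ± 3.67 FPKM (SD over 3 libraries each, log2 fold change -1.002, SE 0.067, limma, adjusted p = 1.55e-05). Its call was lost when cisplatin replicate 1 was left out (-0.94), or PBS replicate 2 (-0.996) or 3 (-0.97), and with median-of-ratios scaling (-0.99), quantile normalisation (-0.94) and limma voom (-0.93). Anxa2 was called without cisplatin replicate 1, without PBS replicate 1 or 2, with a pseudocount of 0.1, with TPM rescaling and with quantile normalisation (-1.04 to -1.001).

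Of 22 clotting factor genes and genes of their processing, 13 were tested, none was called higher and 3 were called lower, with a median log2 fold change of -0.040. At an adjusted p under 0.05 alone, 4 were higher and 5 lower, and 4 were higher at an unadjusted p under 0.05; a pseudocount of 0.1 and limma voom each called 2 higher, F5 and Vwf, the latter named after its value was seen. F7, the partner of tissue factor, was at 10.9, 9.497 and 9.64 FPKM with PBS and at 8.70, 10.7 and 9.54 FPKM with cisplatin. Its groups overlapped (log2 fold change -0.051, SE 0.085, limma, adjusted p = 0.618). F5, which encodes the cofactor of factor Xa, had a log2 fold change of 0.82 (limma, adjusted p = 0.000157), and F13a1, which encodes the chain of factor XIII that crosslinks fibrin, of 0.48 (limma, adjusted p = 0.000417), both short of the fold threshold, although F5 passed it with a pseudocount of 0.1 (1.06) and with limma voom (1.19). The prothrombin gene F2 was at up to 0.0281 FPKM, on 0 to 2 reads.

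The clotting genes called lower are known for roles beyond coagulation. P4hb, a protein disulfide isomerase linked to tissue factor activation, fell from 679 ± 16.5 to 328 ± 8.14 FPKM (SD over 3 libraries each, log2 fold change -1.05, limma, adjusted p = 5.97e-07). Ano6, a scramblase that exposes the phosphatidylserine on which clotting factors assemble, fell from 27.0 ± 1.15 to 12.8 ± 0.24 FPKM (SD over 3 libraries each, log2 fold change -1.03, limma, adjusted p = 1.76e-06). With quantile normalisation and with limma voom, 1 gene of this list was called lower in place of 3, as both lay just inside the fold threshold, and Ano6 was at -0.993 without PBS replicate 2. Kng2, a kininogen gene, was at 2.29, 2.98 and 2.90 FPKM with PBS, and at 0.0430 FPKM on 2 reads in cisplatin replicate 1 and at 0 in the others. It passed the filter only through the PBS libraries, and may share reads with its close relative Kng1.

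Among 16 genes of anticoagulants and of thrombin and factor Xa receptors, 9 were tested, 3 were called higher and 2 lower, and the median log2 fold change was 0.45. Those called higher were Procr, Pros1 and F2rl2. Procr encodes the receptor of protein C, the protein that thrombomodulin helps to activate, and rose from 9.63, 8.22 and 8.60 FPKM with PBS to 21.0, 24.2 and 22.2 FPKM with cisplatin (log2 fold change 1.26, SE 0.073, limma, adjusted p = 7.81e-06). Pros1, named after its value was seen, encodes protein S, a cofactor of protein C and of the Tfpi product, and was at 0.636, 0.660 and 0.804 FPKM with PBS and at 3.06, 2.96 and 2.47 FPKM with cisplatin. F2rl2, a thrombin receptor gene, was at 0.767 ± 0.10 FPKM with PBS and 3.004 ± 0.58 FPKM with cisplatin (SD over 3 libraries each). Pros1 and F2rl2 reached 1 FPKM in no PBS library, so that they passed the filter only through the group where they were high, and their calls carry no weight as tests.

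The receptor genes called lower were F2r and F2rl1. F2r encodes the main thrombin receptor, and went from 25.8, 28.0 and 27.6 FPKM with PBS to 8.88, 8.25 and 8.31 FPKM with cisplatin (log2 fold change -1.57, SE 0.050, limma, adjusted p = 4.74e-07). F2rl1 encodes a receptor that factor Xa and the complex of tissue factor with factor VIIa can cut, and went from 4.23, 4.87 and 5.51 FPKM to 0.837, 0.7998 and 0.663 FPKM, having passed the filter only through the PBS libraries. Tfpi2, a relative of Tfpi, stayed between 0 and 0.244 FPKM and was not tested.

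**Figure D3:**
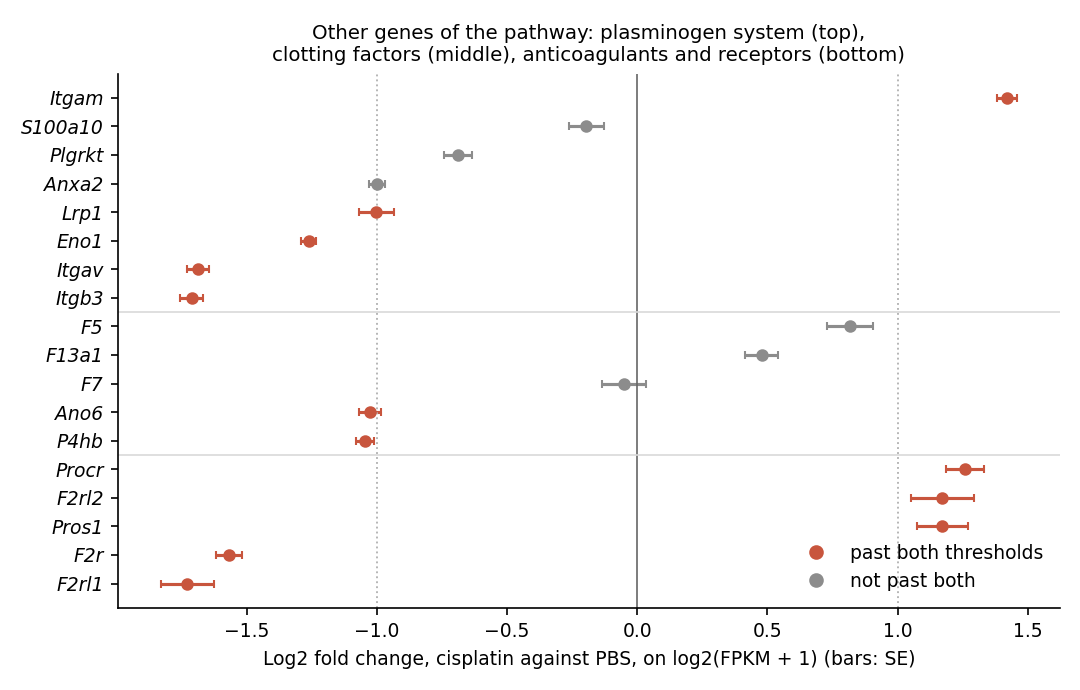
Log2 fold change (cisplatin against PBS, on log2(FPKM + 1)) of 18 tested genes of the pathway that are not members, with bars for the SE; red points passed both thresholds, grey points did not, and dotted lines mark a log2 fold change of 1 in size. Anticoagulant and receptor genes lie on both sides, with Procr at 1.26 and F2r at -1.57.

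The summed levels of cell type markers moved with these results. Reads recovered from the FPKM values came to between 15776238 and 17924686 per library, and libraries of a group correlated with r between 0.984 and 0.989. All 14 macrophage markers were detected and had positive log2 fold changes, 8 of them called higher, and their summed level went from between 2238 and 2277 FPKM with PBS to between 5304 and 5469 FPKM with cisplatin. Mertk, 1 of those called, reached 1 FPKM in no PBS library and so passed the filter only through the cisplatin libraries. The folds of the others ran from 1.15 for Cd68 to 5.80 for C1qb, with Adgre1 at 1.84 and Lyz2 at 2.98. Lyz2 made up most of the rise in the sum (1161 ± 10.8 to 3459 ± 80.4 FPKM, SD, n = 3 each). Of 16 markers of ID8 cells and mesothelium, 10 were tested, 8 were called lower and none higher, and the sum went from between 1312 and 1415 to between 247 and 268 FPKM. Among the tested ones, Krt19 was 11.5-fold, Upk1b 2.35-fold and Msln 1.64-fold lower, while Cdh1 was 1.67-fold higher (log2 fold change 0.60, limma, adjusted p = 0.00238), short of the fold threshold. In bulk RNA, fewer cells of a type and less RNA per cell cannot be told apart, and the part of these markers in the members' values was not tested.

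Other cell types that express members were measured in the same way. Of 7 endothelial markers, 3 were tested and 1 was called lower, and their sum was 18.5 to 19.4 FPKM with PBS and 16.7 to 17.1 FPKM with cisplatin, while Pecam1 was 1.66-fold higher, Esam went from 7.44 to 1.84 and Tek from 3.48 to 1.38 FPKM on average, with the defining markers Cdh5 at up to 0.377 and Emcn at up to 0.0435 FPKM. Of 8 platelet and megakaryocyte markers, 4 were tested and 3 called higher. Their sum went from between 28.7 and 33.8 to between 257 and 282 FPKM, most of it from Pf4 (16.99 ± 2.45 to 205 ± 9.99 FPKM, SD, n = 3 each), while Gp1bb was at 0 in all libraries. Of 10 neutrophil markers, 7 were called higher and none lower, and the sum went from between 4826 and 4986 to between 8981 and 9240 FPKM. Most of that sum was S100a9 (3105 to 5233 FPKM on average) and S100a8 (1423 to 2581 FPKM), both short of the fold threshold. Ly6g overlapped between groups (2.81 with PBS and 3.15 FPKM with cisplatin, limma, adjusted p = 0.349). Of 9 fibroblast markers, 3 were tested and 1 called lower, with sums of 59.1 to 62.7 and 21.9 to 24.4 FPKM. Most of that sum was Dcn, the gene called (54.1 ± 2.62 to 16.2 ± 0.84 FPKM, SD, n = 3 each). Among the other tested ones, Col1a1 was 1.59-fold lower and Thy1 1.72-fold higher. Of 5 sex-linked genes, the 4 Y-linked ones had log2 fold changes between 0.55 and 1.15, while Xist had -2.31. The part of these lists in the members' values was not tested.

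**Figure D4:**
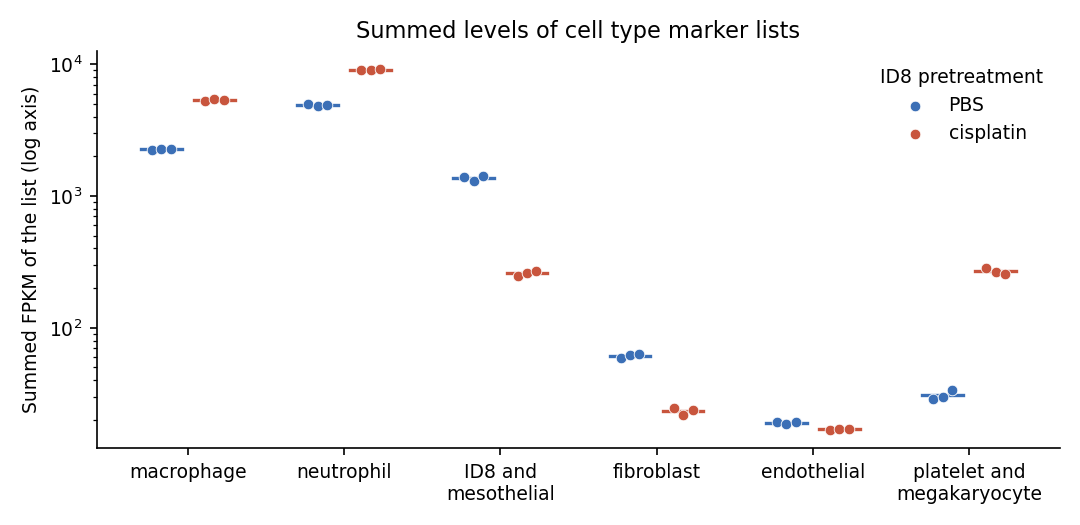
Summed FPKM of each marker list in every library, on a log axis; each point is 1 library and the short line is the mean of 3. Macrophage, neutrophil and platelet lists are higher with cisplatin, and the ID8 and mesothelial list lies at 247 to 268 FPKM against 1312 to 1415 FPKM with PBS.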

How the data were processed

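RNA-seq of poly-T selected RNA was analysed in 6 libraries, 3 per group, with groups taken from the treatment label. The authors deposited FPKM per gene, with symbols, coordinates and lengths. Low-quality and adaptor-containing reads had been removed. The submitters' processing notes name fastp, HISAT2 2.0.5, featureCounts 1.5.0-p3 and mm10, whereas the study's methods name LifeScope; whether counting used strand is not given in the sources used here. For all 9 members the coordinates equalled those of GENCODE M21 (GRCm38).

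Multiplied by gene length, all values under 200 reads were whole multiples of 1 step per library (within 0.05 reads). The library total implied by the FPKM was 103.7% to 104.1% of the recovered reads in cisplatin libraries and 97.4% to 98.7% in PBS libraries, which lowers cisplatin values relative to PBS values.

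Genes with at least 1 FPKM in at least 3 libraries (13441, all 9 members included) were fitted on log2(FPKM + 1) with limma 3.58.1 in R 4.3.3 (lmFit, eBayes with trend, two-sided, Benjamini-Hochberg). This scale understates the change of low genes. The procedure was tested on simulated data. Members and lists were chosen with earlier results of these data known. Named were all members, the 4 called genes with the largest change in each pathway list, and Plg, Plgrkt, Anxa2, S100a10, Lrp1, F7, F5, F13a1, Tfpi2, Procr, F2r, F2rl1, Krt19, Adgre1 and Pf4, plus the tested gene nearest in profile to each member. A single-gene result of this rule is not reported here; that gene stays in the counts. Alternatives were another pseudocount or filter, other scalings, eBayes without trend, voom, a replicate block, each library left out and the adjusted p alone.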

Additional observations from a re-analysis of the deposited data

How the results depend on the processing

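Over the alternatives run, no member changed sign. The log2 fold change ranged from -2.97 to -2.24 for F3, from -1.42 to -1.04 for Plat, from 0.063 to 0.21 for Plau, from 2.18 to 3.04 for Serpinb2, from 1.098 to 1.29 for Plaur, from 1.23 to 1.86 for Thbd, from 0.93 to 1.91 for Tfpi, from 0.71 to 1.32 for Serpine2 and from 0.81 to 0.94 for F10. With a filter at 5 FPKM, Tfpi and Serpine2 dropped out, and 1 gene of the anticoagulant and receptor list was called higher and 1 lower, since only 3 were then tested. Members at a log2 fold change of 1 or more numbered 5 with a pseudocount of 0.1, TPM rescaling or limma voom, and 3 to 4 with a library left out. Genes called higher numbered 973 with a pseudocount of 0.1 and 1227 with limma voom, in place of 628, and 622 to 671 with a library left out; genes called lower numbered 1513 to 1531 there, in place of 1514. In the lists, 4 to 6 plasminogen and 2 to 4 clotting genes were called lower with a library left out. In the clotting list, 2 genes were called higher with a pseudocount of 0.1 or limma voom and 1 lower with quantile normalisation or limma voom. The adjusted p alone called 4424 genes higher and 4721 lower, 5 and 12 in the plasminogen list, 4 and 5 in the clotting list, and 5 higher in the anticoagulant and receptor list. Where no construction shows it, the cause was not tested. Quantile normalisation moved the median log2 fold change of all tested genes to 0.10, and 39.3% of its calls were higher.

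In a fit with a replicate block, 625 genes were called higher and 1515 lower, and no count of a list changed. Libraries with the same number did not deviate together (r between -0.10 and -0.024). That gives no sign that the numbers pair them, but with 3 libraries per group it cannot exclude a shared source. Tfpi, Serpinb2 and Thbd with PBS and F3 with cisplatin rest on 38 to 118 reads per library. The SD was 32.4% of the mean for Tfpi, 10.9% for Serpinb2 and 16.3% for Thbd there, where counting reads alone gives 13.02%, 14.9% and 10.2%.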

Other observations

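F10, F7 and Proz lie side by side on chromosome 8, and their values differed. F7 ends 1499 bases before F10 and had a log2 fold change of -0.051 (limma, adjusted p = 0.618), and Proz, which encodes an anticoagulant cofactor and starts 4238 bases after F10, was at 0.778 ± 0.059 FPKM with PBS and 1.59 ± 0.23 FPKM with cisplatin (SD, n = 3 each). Next to Thbd, at 28452 bases, Cd93 rose from 19.7 ± 0.93 to 69.3 ± 0.63 FPKM (SD over 3 libraries each, log2 fold change 1.76, limma, adjusted p = 1.48e-07). On the other side of Thbd, Sstr4 at 7699 bases was not tested, and Foxa2 at 357497 bases fell (log2 fold change -1.99, limma, adjusted p = 2.52e-06). Around F3, Arhgap29 at 217493 bases fell (log2 fold change -2.65, limma, adjusted p = 5.20e-07). Slc44a3, at 191133 bases from F3, was at 2.55 FPKM with PBS and 0.273 FPKM with cisplatin. Abcd3, the nearest on the right at 23726 bases, had a log2 fold change of -0.68 (limma, adjusted p = 4.54e-05). Neighbours also fell near members that were not lower, as did Ctnnd1 at 123296 bases from Tfpi (log2 fold change -1.20, limma, adjusted p = 2.68e-05) and Vcl at 86013 bases from Plau (log2 fold change -1.31, limma, adjusted p = 2.04e-06). Cadm4 near Plaur was at 3.15 FPKM with PBS and 0.761 FPKM with cisplatin. Proz, Slc44a3 and Cadm4 passed the filter only through the group where they were high. These were looked up among the 2 nearest protein-coding genes on each side of each member, a choice made after the data were seen. Not every neighbour is named, and of all tested genes 4.67% were called higher and 11.3% lower.

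The tested gene whose centred log2(FPKM + 1) profile over the 6 libraries lay nearest was Coro2a for F10 (mean absolute difference 0.014), Yeats4 for Serpine2 (0.019), Parp14 for Plat (0.020), Slc16a10 for Tfpi (0.027), Klhl21 for Plau (0.028), Kctd11 for F3 (0.029), Aif1 for Thbd (0.036), Gpr27 for Plaur (0.043) and F630028O10Rik for Serpinb2 (0.064). The likeness is one of differences on log2(FPKM + 1), not of folds in FPKM, and Gpr27, at 0.295 FPKM with PBS and 1.96 FPKM with cisplatin on average, passed the filter only through the cisplatin libraries.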
